A study of Saccharomyces cerevisiae with 16 samples.

Results

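FAR1, AGA1, SAG1 and STE3 are genes of the yeast mating response, and their transcripts were followed in cells held in hydroxyurea, an inhibitor of ribonucleotide reductase that slows DNA replication. The 4 genes were picked by name, and the spots used were those where such a symbol stood alone in the annotation of the slide. This gave 5 spots of 6912, with STE3 on 2 of them, and 4 genes of the 3127 that could be tested. The treated groups were wild-type Saccharomyces cerevisiae of the strain CDY59, grown in YPD rich medium to an optical density of 0.5 and then kept with 200 mM hydroxyurea for 1, 2, 4 or 6 h. Their counterpart on every slide was RNA from CDY59 at that optical density with no drug, and no untreated cells of the later times were described, so any change with further time in culture is part of each ratio. The mating type of CDY59 is not given in the labels.

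Haploid yeast comes in 2 mating types, a and α, and each secretes a peptide pheromone that binds a receptor on the other. The receptor releases a G protein that drives a kinase cascade, which turns on mating genes, stops the cell cycle in G1 and directs growth towards the partner. FAR1 (YJL157C) codes for the protein that binds and inhibits the G1 cyclin kinase and also guides polarised growth. AGA1 (YNR044W) codes for the subunit that anchors a-agglutinin to the cell wall, and SAG1 (YJR004C) for α-agglutinin, the adhesion protein of α cells that binds it. STE3 (YKL178C) codes for the receptor for a-factor, which is made in α cells.

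Every time had 2 slides, 1 with treated RNA in channel 1 and 1 with it in channel 2, and both readings of a slide were averaged, which left 8 slide values per gene. All values are log2 ratios of treated over untreated RNA, on a scale where 0 is the median gene of a reading. They are ratios only, so neither the abundance of a transcript nor its signal over background is known, and fewer cells with a transcript cannot be told apart from less transcript per cell. The sign rests on RNR2 and RNR4, subunits of the target enzyme that were taken to rise (2.69 and 2.55 in the mean over the 4 times), so the direction is likely and not established. On the channel 1 slide of 1 h RNR2 was at -0.98 and RNR4 at 0.14, whereas on the other 7 slides both were above 0. Turned round, every sign below would change. Across genes, the slides of 1, 2, 4 and 6 h correlated with the other slide of their time at -0.081, -0.034, 0.504 and 0.579. Slides of different times did so at a median of 0.564 where the orientation was the same and of 0.126 where it was opposite. In the deposited values the median gene itself was not at 0: averaged over the times it was at 0.20, at the single times 1, 2, 4 and 6 h it was at 0.21, -0.215, 0.457 and 0.292, and late minus early times it was at 0.364.

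FAR1, AGA1 and SAG1 were lower in the mean over the 4 times, and STE3 did not pass. The model (limma, Benjamini-Hochberg over 3127 genes, threshold 0.05, two-sided) called 11.8% of all genes lower and 6.97% higher in this mean. The 4 genes were chosen with earlier results of these data known, so 3 of 4 called lower beside that share is not a test. The balance of higher and lower calls turned on values as deposited, with 816 genes called higher and 226 lower. The same 3 genes were still called lower there, at -0.70 for FAR1, -0.78 for SAG1 and -0.40 for AGA1. FAR1 stood at -0.88 ± 0.18 (standard error, adjusted p = 0.0129), a 0.542-fold ratio if the logarithm is to base 2. It was below 0 on 8 of 8 slides, which held for 143 of the 3127 genes. Before centring, its values on the channel 2 slides of 1 and 4 h were above 0. SAG1 stood at -0.97 ± 0.20 (adjusted p = 0.0132) with 6 of 8 slides below 0. AGA1 stood at -0.59 ± 0.11 (adjusted p = 0.00964) with 7 of 8 slides below 0. STE3, as the average of its spots, was at -0.26 ± 0.09 (adjusted p = 0.0772, 6 of 8 slides below 0), with a 95% interval from -0.46 to -0.06 before any adjustment. Among the 3127 genes SAG1 ranked 51 from the lowest, FAR1 69, AGA1 173 and STE3 573.

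**Figure D1:**
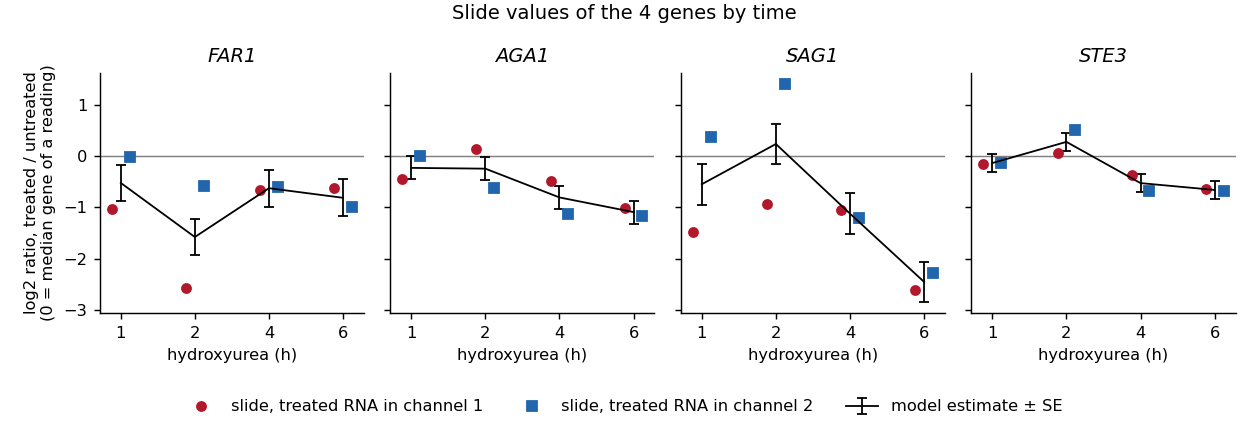
Log2 ratio of treated over untreated RNA (vertical axis, 0 is the median gene) against hours in hydroxyurea for each of the 4 genes, with circles for slides with treated RNA in channel 1, squares for channel 2, and lines with bars for the model's estimate ± standard error. FAR1 is lowest on 1 slide of 2 h, at -2.58, while SAG1 is lowest on both slides of 6 h, at -2.62 and -2.28.

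The inhibitor gene FAR1 had values of -1.03 and -0.02 on the channel 1 and channel 2 slides of 1 h. The pairs of the later times were -2.58 and -0.58 for 2 h, -0.66 and -0.60 for 4 h, and -0.63 and -1.0 for 6 h. All 8 centred values were below 0, the 4 h slides lay closest together, and the 2 h slides lay farthest apart. The readings behind the channel 2 value of 1 h were at 0.10 and -0.13. Both readings of the low 2 h slide were low, at -2.19 and -2.96, and on it FAR1 was at percentile 0.2 of all genes.

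The FAR1 estimates for 1, 2, 4 and 6 h were -0.52, -1.57, -0.63 and -0.81, each ± 0.36. None of these passed, with adjusted p of 0.699, 0.0538, 0.386 and 0.193, and the shares of all genes called lower were 0.544%, 0.863%, 2.21% and 4.35% at those times. At 2 h FAR1 ranked 8 from the lowest, in a comparison led by the ribosomal protein genes RPS3 and RPS7A at -3.21 and -2.72. That estimate was -0.69 without the channel 1 slide of 2 h and -2.46 without the channel 2 slide. With 1 slide of a time left, the model shifts it by a channel orientation effect taken from the other times. The call in the mean over the times was lost without the channel 1 slide of 1 h (-0.83, adjusted p = 0.0692) and without the channel 2 slide of 6 h (-0.71, adjusted p = 0.0537).

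SAG1, the α-agglutinin gene, had its lowest values at 6 h. It had -1.47 and 0.38 on the channel 1 and channel 2 slides of 1 h, and -0.94 and 1.41 on those of 2 h. At 4 h the slides gave -1.04 and -1.20, and at 6 h -2.62 and -2.28. The 2 slides of a time thus had opposite signs at 1 and 2 h and lay close together at 4 and 6 h. The 4 readings of 6 h ran from -2.82 to -2.09.

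At 6 h SAG1 was lower by the model, at -2.45 ± 0.40 (adjusted p = 0.0132), and both slides were below 0. In base 2 this is a ratio of 0.183. It ranked 2 from the lowest of 3127 genes, after the chitinase gene CTS1 at -2.80. For 1, 2 and 4 h the estimates were -0.55, 0.24 and -1.12, each ± 0.40, with adjusted p of 0.723, 0.794 and 0.197. The 6 h call was lost without either slide of that time, at -2.95 without channel 1 and -1.94 without channel 2. These estimates differ from the slide left, at -2.28 and -2.62, by the orientation effect taken from the other times. In the mean over the times, the call was lost without the channel 1 slide of 1 h (-0.84, adjusted p = 0.0722) and without the channel 2 slide of 6 h (-0.84, adjusted p = 0.0646), and the slides of 1 and 2 h alone gave -0.16 (adjusted p = 0.62).

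AGA1, the anchor subunit of the other agglutinin, was lower at 6 h. Its slides with treated RNA in channel 1 and channel 2 gave -0.46 and -0.01 for 1 h, 0.13 and -0.62 for 2 h, -0.49 and -1.12 for 4 h, and -1.01 and -1.18 for 6 h. Only the channel 1 slide of 2 h was above 0, and the slides of 6 h lay closest together. Its estimates for 1, 2, 4 and 6 h were -0.23, -0.25, -0.81 and -1.09, each ± 0.22. It passed at 6 h (adjusted p = 0.0317) and had adjusted p of 0.815, 0.593 and 0.1 at 1, 2 and 4 h. The 6 h call was lost without either slide of that time, at -1.02 and -1.16 without channel 1 and channel 2, the slide left again being shifted for orientation. The slides of 1 and 2 h alone gave a mean of -0.24 (adjusted p = 0.512).

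**Figure D2:**
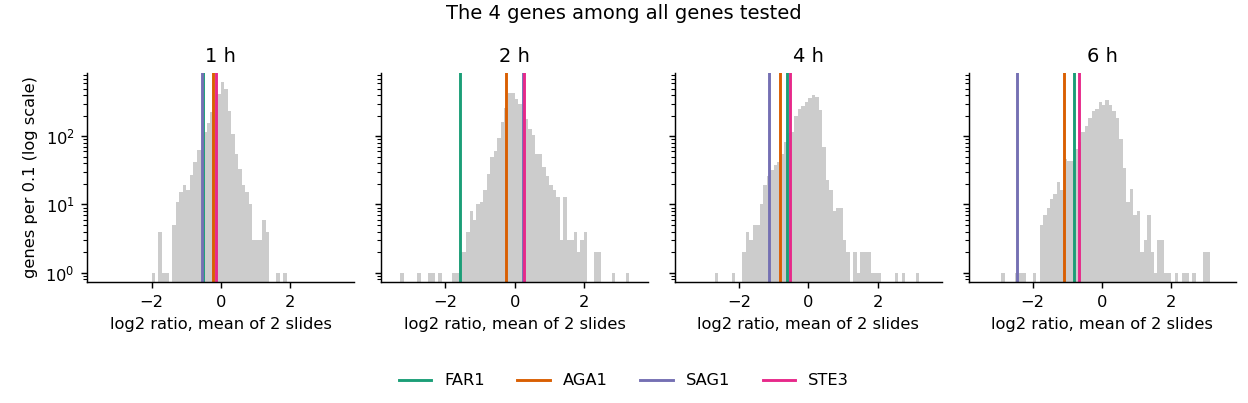
Number of genes (vertical log axis, bins of 0.1) by their log2 ratio, averaged over the 2 slides of each time, with a coloured line for each of the 4 genes. FAR1 lies in the lower tail at 2 h, at -1.57, and SAG1 at 6 h, at -2.45, where it is rank 2 from the lowest.

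The receptor gene STE3 gave different answers on its 2 spots. The first had -0.23 and -0.33 on the channel 1 and channel 2 slides of 1 h, -0.13 and 1.15 on those of 2 h, -0.67 and -1.20 on those of 4 h, and -1.40 and -1.21 on those of 6 h. The second stayed between -0.16 and 0.24 on all 8 slides, with 0.13 and -0.15 at 6 h. The first spot was the lower of the 2 on 7 of 8 slides, and they shared a sign on 4. Their mean absolute gap over the slides was 0.805, against a median of 0.381 over the 197 genes with exactly 2 spots, and 25 had a larger gap than STE3.

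Fitted spot by spot over 3344 spots, the first spot was lower in the mean over the times, at -0.50 ± 0.14 (adjusted p = 0.0397), and at 6 h, at -1.30 ± 0.28 (adjusted p = 0.0323). The second was at -0.02 ± 0.08 in the mean (adjusted p = 0.869) and -0.01 ± 0.17 at 6 h (adjusted p = 0.97). Which spot reports STE3 RNA was not tested, and the values for STE3 elsewhere are their average. On the channel 1 and channel 2 slides this average was -0.15 and -0.13 for 1 h, 0.05 and 0.50 for 2 h, -0.38 and -0.68 for 4 h, and -0.64 and -0.68 for 6 h, so only 2 h was above 0. Its estimates were -0.14, 0.28, -0.53 and -0.66 for 1, 2, 4 and 6 h, each ± 0.18, with adjusted p of 0.865, 0.428, 0.167 and 0.0704. Without the channel 2 slide of 2 h, where the first spot was high, the average passed in the mean (-0.33, adjusted p = 0.028).

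**Figure D3:**
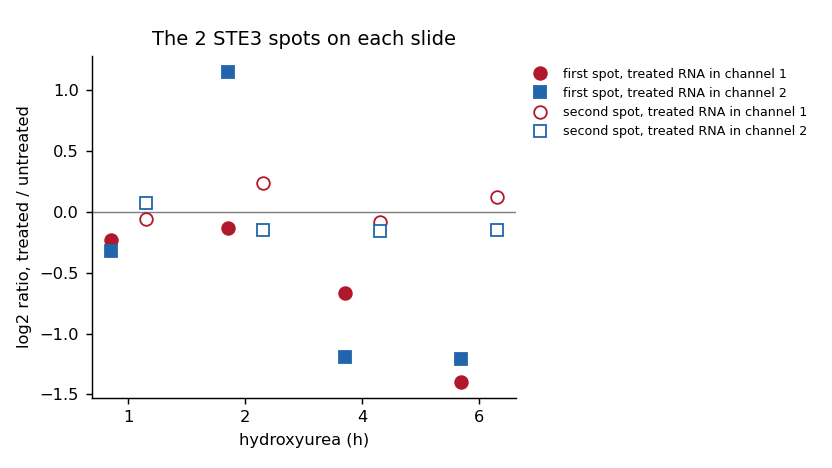
Log2 ratio of treated over untreated RNA (vertical axis) on each slide for the 2 spots of STE3, by hours in hydroxyurea, filled for the first spot and open for the second, circles and squares for treated RNA in channel 1 and 2. The first spot reaches -1.40 and -1.21 at 6 h, while the second is at 0.13 and -0.15.

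At 6 h, 2 of the 4 genes were thus called lower, SAG1 and AGA1, against 4.35% of all genes, and at 1, 2 and 4 h none of them was, against 0.544%, 0.863% and 2.21%. As the 4 genes were chosen with earlier results known, these shares are no test of them. Unadjusted p under 0.05 at those earlier times was reached by FAR1 at 2 h (0.00234) and at 4 h by AGA1 (0.00702), STE3 (0.0172) and SAG1 (0.0225).

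The order of the times differed among the genes, but the differences between times did not pass. For 4 and 6 h minus 1 and 2 h, SAG1 had -1.63 ± 0.40 (adjusted p = 0.136), AGA1 -0.71 ± 0.22 (adjusted p = 0.191), STE3 -0.66 ± 0.18 (adjusted p = 0.141) and FAR1 0.33 ± 0.36 (adjusted p = 0.618). The FAR1 value had the other sign without the channel 1 slide of 2 h (-0.11) or of 6 h (-0.02), and was 0.77 without the channel 2 slide of 2 h. SAG1 ranked 2 from the lowest here, after the sulfur assimilation gene MET17 at -1.67. Of 3127 genes 0 (0%) passed this comparison in limma, and 549 had an unadjusted p under 0.05. Testing all times jointly (F-test) also called 0 genes (0%), with 377 at an unadjusted p under 0.05, and gave adjusted p of 0.266 for SAG1, 0.325 for STE3, 0.453 for AGA1 and 0.621 for FAR1. Over the 6 pairs of times and 4 genes, the smallest adjusted p of the 24 tests was 0.102, for SAG1 at 6 h minus 2 h (-2.68 ± 0.56). Over all genes that pair of times had 8 calls (0.256%), 2 h minus 1 h had 1 (0.032%), and the other 4 pairs had 0 (0%) in limma, with 38 to 505 genes at an unadjusted p under 0.05. Neighbouring times were not told apart for any of the 4 genes. From the lowest, the order was 6, 4, 1 and 2 h for SAG1 and STE3, 6, 4, 2 and 1 h for AGA1, and 2, 6, 4 and 1 h for FAR1.

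Each gene was also set out by the channel that held the treated RNA. The 4 channel 1 slides averaged -1.22 ± 0.92 (SD) for FAR1 and the 4 channel 2 slides -0.55 ± 0.40. For SAG1 the means were -1.52 ± 0.77 on channel 1 slides and -0.43 ± 1.64 on channel 2 slides. AGA1 had -0.45 ± 0.46 and -0.73 ± 0.54, and STE3 -0.28 ± 0.30 and -0.25 ± 0.56, on channel 1 and channel 2 slides. All 4 genes were below 0 in both means. The orientation effect was -1.09 ± 0.40 for SAG1 (adjusted p = 0.0862), -0.68 ± 0.36 for FAR1 (adjusted p = 0.201), 0.28 ± 0.22 for AGA1 (adjusted p = 0.391) and -0.03 ± 0.18 for STE3 (adjusted p = 0.912). None of the 4 passed, against 17.3% of all genes.

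The rest of the mating pathway showed few calls. Of 76 listed pathway genes 37 were measured, and the 33 besides FAR1, AGA1, SAG1 and STE3 had 1 call higher and 0 lower in the mean over the times, with 3 higher and 5 lower at an unadjusted p under 0.05 by limma. Their median was 0.06, beside 0.01 for all genes, of which 6.97% were called higher and 11.8% lower. FAR1, AGA1, SAG1 and STE3 were chosen with earlier results known, so their contrast with these 33 genes is not a test. The single call was MF(ALPHA)1, which codes for the α-factor pheromone, at 0.92 ± 0.09 (adjusted p = 0.000554). It was above 0 on 8 of 8 slides, which held for 119 of 3127 genes.

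Among receptor and G protein genes, 0 of 4 measured passed, while limma's unadjusted p was under 0.05 for 2. GPA1, the G protein α subunit, was at -0.12 (adjusted p = 0.423), and STE4, its β subunit, at -0.18 (adjusted p = 0.17). In the kinase cascade and polarity group FAR1 was the only 1 of 8 measured genes to pass, and the kinase genes FUS3, KSS1 and STE7 were at -0.06, -0.27 and 0.06 (adjusted p = 0.711, 0.0771 and 0.557). The regulators MCM1 and TEC1 were at -0.26 and -0.45 (adjusted p = 0.0984 and 0.0682). The orientation effect passed for TEC1 (-1.35, limma adjusted p = 0.0268) and STE4 (0.62, limma adjusted p = 0.04), against 17.3% of all genes. Of the 12 measured genes of agglutination, cell shape and fusion, AGA1 and SAG1 passed and the others lay between -0.06 and 0.27. AGA2, the a-agglutinin subunit that Aga1 anchors, was at 0.14 ± 0.09 (adjusted p = 0.282), and its values of 0.07, -0.12, 0.28 and 0.34 at 1, 2, 4 and 6 h ran opposite in sign to those of AGA1 at 3 of the 4 times, without passing at any time. They depended on the channel, with an orientation effect of 0.75 (limma adjusted p = 0.0299). The channel 1 and channel 2 slides of 1 h gave 0.525 and -0.395. On the channel 2 slides of 4 and 6 h AGA2 was at 0.025 and 0.095.

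**Figure D4:**
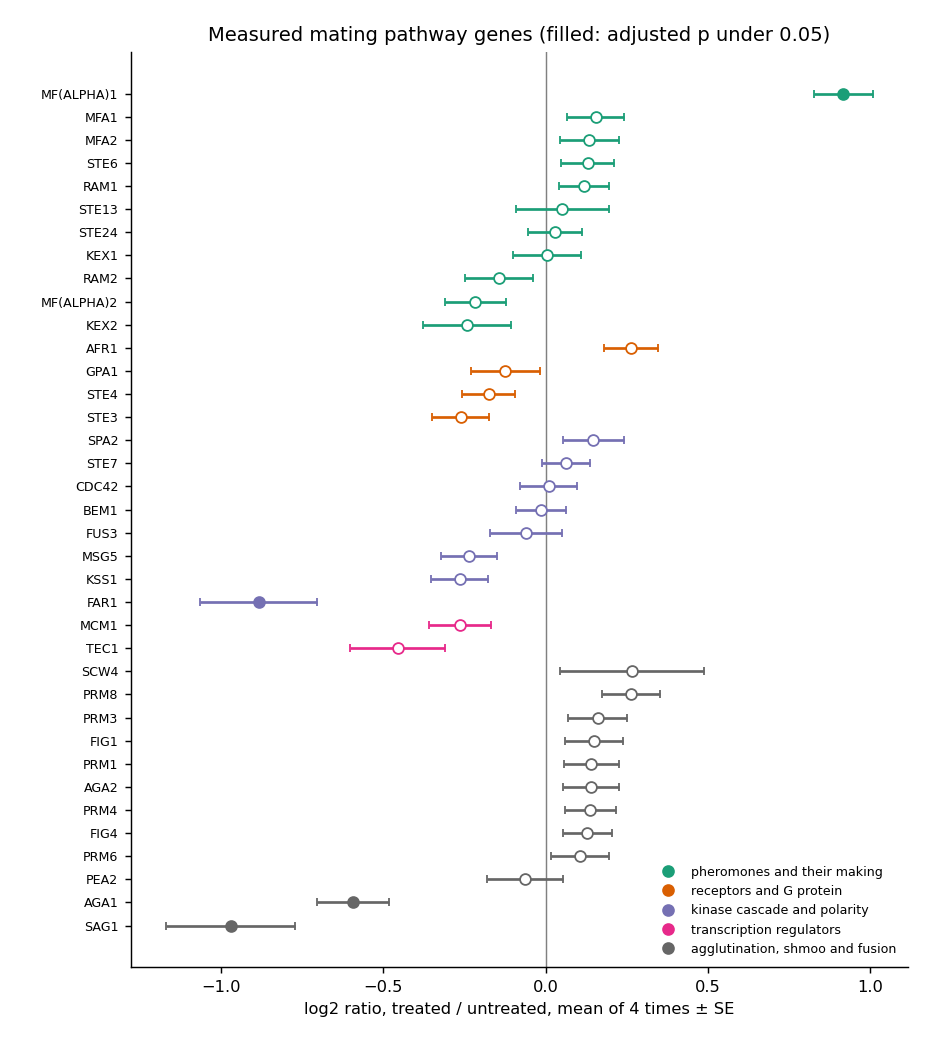
Log2 ratio of treated over untreated RNA in the mean of the 4 times (horizontal axis, bars are ± standard error) for the 37 measured mating pathway genes, coloured by role, filled where the adjusted p was under 0.05. SAG1, FAR1 and AGA1 are the filled points below 0 and MF(ALPHA)1, at 0.92, the filled point above it.

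Genes used by α cells split at 6 h. MF(ALPHA)1 had 1.93 and 1.94 on the channel 1 and channel 2 slides of 6 h and was higher there (1.93 ± 0.18, adjusted p = 0.00331) and at 4 h (0.90, adjusted p = 0.0433), where 1.66% and 0.608% of all genes were called higher. MF(ALPHA)2, a near copy that also codes for α-factor and was singled out after its values were seen, had -1.41 and -1.32 on those slides and was lower at 6 h (-1.36 ± 0.19, adjusted p = 0.00803). It was higher at 2 h (0.92 ± 0.19, adjusted p = 0.0372), where 3.33% of all genes were. The 2 genes share sequence, so RNA of one may bind the spot of the other. At 6 h 1 of the 4 measured α-cell genes was therefore higher and 2 were lower, SAG1 being the other, and STE3 was at -0.66.

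Genes used by a cells had values close to each other at every time. MFA1 and MFA2, which code for a-factor, STE6, its exporter, and AGA2 lay between 0.06 and 0.10 at 1 h, -0.24 and -0.12 at 2 h, 0.20 and 0.29 at 4 h, and 0.34 and 0.45 at 6 h. The slides behind these values differed by channel. At 1 h all 4 were above 0 on the channel 1 slide and below 0 on the other. At 2 h MFA2 had 0.405 and -0.81, and STE6 -0.065 and -0.415. The orientation effect passed for MFA2 and AGA2 (limma adjusted p = 0.0338 and 0.0299), but not for MFA1 and STE6 (0.0547 and 0.562), against 17.3% of all genes. None of the 4 passed at any time in limma, they had the signs that the median gene had in the deposited values, and 3 had an unadjusted p under 0.05 at 6 h. Meiosis and sporulation genes, which mark another cell state, had medians of 0.06, -0.07, 0.28 and 0.41 at 1, 2, 4 and 6 h over 6 measured, with 0 passing in the mean, where limma's unadjusted p was under 0.05 for 2. With no intensities, these markers do not show which mating type was on the slides.

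**Figure D5:**
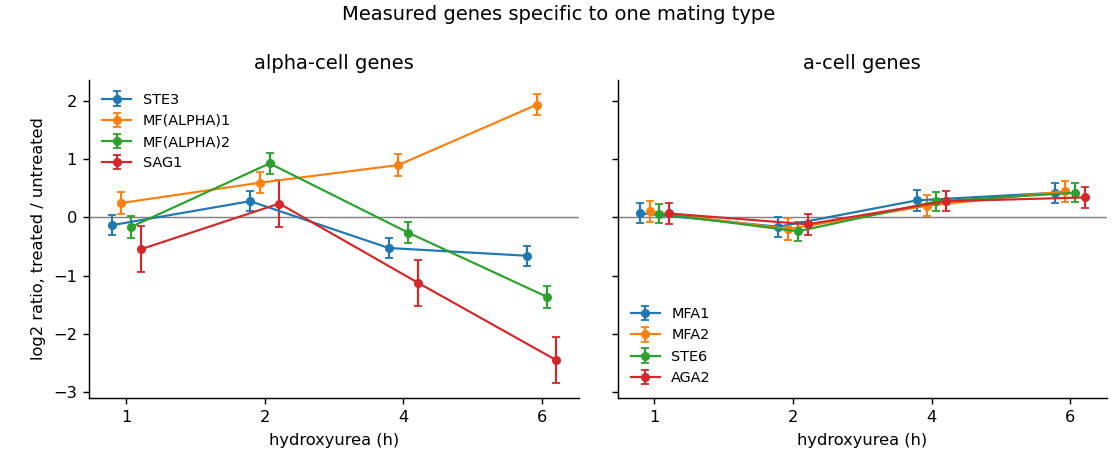
Log2 ratio of treated over untreated RNA (vertical axis, bars are ± standard error of the model) by hours in hydroxyurea for the measured genes of α cells (left) and a cells (right). At 6 h MF(ALPHA)1 stands at 1.93 and MF(ALPHA)2 and SAG1 at -1.36 and -2.45, while the a-cell genes stand between 0.34 and 0.45.

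Of 7 measured haploid-cell genes, FAR1 included, 3 were lower in the mean, against 11.8% of all genes, and 1 was on values as deposited. Their means ran from -0.88 to -0.06. Beside FAR1 these were RME1 (-0.52 ± 0.11, adjusted p = 0.0134), a repressor of meiosis, and NEJ1 (-0.43 ± 0.10, adjusted p = 0.0239), an end-joining factor. The count was 1 without the channel 1 slide of 1 h and 0 without the channel 2 slide of 6 h.

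Of the genes that act with Far1 on the cell cycle, 4 of 6 measured were lower in the mean, against 11.8% of all genes. The G1 cyclin genes CLN1 and CLN2, whose kinase Far1 inhibits, were at -0.35 ± 0.08 (adjusted p = 0.0197) and -0.48 ± 0.09 (adjusted p = 0.00912). SIC1, the inhibitor of the S-phase cyclin kinase, was at -0.51 ± 0.08 (adjusted p = 0.00484), and CKS1, a kinase subunit, at -0.41 ± 0.09 (adjusted p = 0.0176). CDC28, the kinase itself, was at 0.22 (adjusted p = 0.177), but it depended on the channel. It was below 0 on all channel 1 slides and above 0 on all channel 2 slides, with an orientation effect of -1.03 (limma adjusted p = 0.0249). On values as deposited 0 of the 6 were called lower, and the count fell to 2, 2 and 1 without the channel 1 slide of 1 h, the channel 2 slide of 4 h and the channel 2 slide of 6 h.

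FAR1 is transcribed with the cell cycle, so genes of the passage from mitosis to G1 were set beside it. Genes with the early cell cycle box bound by Mcm1 had 0 of 4 measured passing in limma, 1 with an unadjusted p under 0.05, with means from -0.26 (MCM7) to 0.03 (CDC6).

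Aga1 and Sag1 are wall proteins held by a GPI anchor, and other wall and anchor protein genes went both ways. Of 17 measured, 3 were higher and 4 lower in the mean, against 6.97% and 11.8% of all genes, with a median of 0.03. FIT3, a siderophore-binding mannoprotein, and YGP1, a secreted glycoprotein without a GPI anchor, were higher at 1.73 and 1.66, and SPI1 at 0.36. EGT2, PST1, UTR2, a chitin transglycosylase, and TIP1 were lower at -2.28, -1.05, -0.64 and -0.36.

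Likeness to each of the 4 was taken as the root mean square difference in log2 units over the 8 slide values. None of the nearest genes was on the mating pathway list, but that list held only 37 of the 3127 genes tested. FAR1 was closest to MRT4 (0.376), a ribosome assembly factor, TMA19 (0.401) and the chaperonin gene CCT3 (0.411), against a median of 1.19 over all genes. AGA1 was closest to SCS2 (0.112), an endoplasmic reticulum protein, the nucleolar gene NOP14 (0.224) and the peptide transporter gene PTR2 (0.226), against 0.861. SAG1 was closest to EBP2 (0.621), for ribosomal RNA processing, the ribosome-associated chaperone gene SSB1 (0.664) and RPS19B (0.702), against 1.58. STE3 was closest to ATP11 (0.153), UBC9 (0.163) and SEC15 (0.185), against 0.618. Among the 4 genes themselves the smallest difference was that of AGA1 and STE3 (0.495), beside their medians over all genes of 0.861 and 0.618. The largest was that of FAR1 and SAG1 (1.28), beside medians of 1.19 and 1.58. STE3 enters here as the average of 2 spots that gave different answers.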

How the data were processed

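Both RNAs of a slide were purified on columns and labelled indirectly, per the labels' protocols. The authors deposited log ratios between channels, taken as log2 since the base is not stated and the largest absolute value was 6.16. If it is a natural logarithm, the folds lie further from 1. Scanner settings, background correction and normalization are not given in the sources used here, and reading medians of -1.03 to 0.45 showed no centring. No intensities were used, so depth and dim spots could not be assessed, and the number of slides limits the precision.

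Each reading was turned to treated over untreated by its channel labels, centred on the median of its 3344 spots with 1 gene symbol, and averaged with the other reading of its slide. A further 387 spots named several genes and 3181 none, and these were left out. Spots of a gene were averaged. Symbols of 3343 spots were matched by gene number to the R64 annotation, of which no coordinates are given, since the build of the slide is not known. The sign common to all readings was chosen so that RNR2 and RNR4 are positive, the measured ones of 4 genes listed for it.

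Tests used limma 3.58.1 in R 4.3.3 across all 3127 genes, with a coefficient per time and 1 for channel orientation, 3 residual and 4.89 prior degrees of freedom, and Benjamini-Hochberg adjustment. The script was tested on simulated data. The labels do not say that slides held separate cultures, so p-values measure the spread between slides, which may be technical, and spread between times does not enter the error of the mean. Slides of different times were not paired.

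The 4 genes, the gene lists and the rule for naming genes were chosen with earlier results of these data known. Named were the 4 genes, up to 8 passing genes of each list and the 3 genes nearest to each of the 4. List genes named without passing, MF(ALPHA)2, and the genes that led a ranking were chosen after their values were seen. The lists were the mating pathway, Far1 partners, early cell cycle box genes, wall proteins, and a-cell, α-cell, haploid-cell and meiosis genes. A further list is not reported here. Alternatives changed the scaling, the readings, the model, the spots and the slides.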

Additional observations from a re-analysis of the deposited data

Results flagged for a closer look

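The channel 1 slide of 2 h stood apart for FAR1: its value of -2.58 lay below the other 7 slides by 0.604 of the whole range of 8, more than Dixon's 95% critical value for 8 values. These slides are of 4 times, so a response at 2 h also enters that gap. About 1 in 20 such sets is marked this way without any cause, and 4 genes were looked at.

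STE3, as the average of its spots, was above 0 on both slides of 2 h and below 0 on both slides of every other time. The differences were 0.41 for 2 h minus 1 h, -0.80 for 4 h minus 2 h and -0.93 for 6 h minus 2 h, and none passed (limma adjusted p = 0.575, 0.197 and 0.144). Neither spot had this pattern on its own. On the channel 1 and channel 2 slides of 2 h the first spot had -0.13 and 1.15, and the second 0.235 and -0.15.

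MF(ALPHA)2 was above 0 on both slides of 2 h (0.93 and 0.92) and below 0 on both slides of 6 h, a difference of -2.28 for 6 h minus 2 h. It passed (± 0.26, limma adjusted p = 0.0314), in a comparison that called 8 of 3127 genes.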

How the results depend on the processing

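Of 19 alternatives for the mean over the times (20 for STE3), FAR1 kept its call in 16, AGA1 in 17 and SAG1 in 13, and STE3 gained one in 5. No call changed sign, and STE3, which was not called, was above 0 on 1 and 2 h alone (0.07). Leaving out 1 slide gave -1.10 to -0.66 for FAR1, -0.71 to -0.47 for AGA1, -1.18 to -0.76 for SAG1 and -0.33 to -0.19 for STE3. Beyond single slides, calls were lost with no orientation term (FAR1 -0.88, adjusted p = 0.0531, SAG1 -0.97, adjusted p = 0.0862), with the slides of a time averaged (AGA1 -0.59, adjusted p = 0.06, SAG1 -0.97, adjusted p = 0.146), on 1 and 2 h alone (AGA1 -0.24, SAG1 -0.16) and on the faible readings (SAG1 -0.84, adjusted p = 0.0542). STE3 gained it with quantile normalization (-0.29), separate readings with the slide as a random effect (-0.26), 4 and 6 h alone (-0.59), the first spot alone (-0.50) and without the channel 2 slide of 2 h. The cause was not tested.

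Of 587 genes called, 218 were higher and 369 lower. The count was 1042 as deposited (816 higher, 226 lower), 890 with separate readings, 255 with no orientation term, 311 with slides averaged, 1417 on 4 and 6 h, 194 on 1 and 2 h, and 241 to 814 with 1 slide left out. The count of mating pathway genes called, 4, became 11 as deposited, 9 with quantile normalization, 11 with separate readings, 2 with no orientation term, 2 with slides averaged, 20 on 4 and 6 h, 1 on 1 and 2 h, and 2 to 8 with 1 slide left out. As deposited the prior degrees of freedom were infinite, and 4 and 6 h alone left 1 residual degree of freedom. FAR1 at 2 h gained the call in 11 of 17 alternatives, SAG1 at 6 h lost it in 3 and AGA1 at 6 h in 4. Counts for haploid-cell genes (0 to 5) and Far1 partners (0 to 4) over 18 alternatives were added after the data were seen.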
